A study of Mus musculus with 6 samples.

Results

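The genes that copy and read mitochondrial DNA were followed in fetal mouse hearts through 10 nuclear genes chosen by name: Tfam, Tfb1m, Tfb2m, Polrmt, Polg, Polg2, Twnk, Lrpprc, Nrf1 and Gabpa. All 10 were found among the 31529 genes of the deposited table, and all 10 were among the 19959 genes that passed the filter on low counts. The tissue was whole heart from wild-type (WT) ICR mice, an outbred stock, and no treatment is named. Hearts were taken at embryonic day 16.5 (E16.5) or embryonic day 18.5 (E18.5), shortly before birth, with 3 libraries per stage, described as biological replicates in the design text. Poly(A) RNA was sequenced as paired-end, strand-marked libraries. The sources used here do not say if hearts were pooled or which litters they came from. The p-values therefore measure the spread between these libraries.

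Mitochondria keep a small circular chromosome that encodes core subunits of the respiratory chain and the RNAs of their own ribosomes, while every protein that copies or transcribes it is made from nuclear genes. The RNA polymerase POLRMT starts transcription together with TFB2M, which opens the promoter, and TFAM, which binds and bends the DNA there and also packages the whole chromosome into nucleoids. TFB1M, a relative of TFB2M, methylates the small ribosomal RNA. The replisome is built on the DNA polymerase POLG, its accessory subunit POLG2 and the helicase Twinkle, encoded by Twnk, and POLRMT makes the primers. LRPPRC, with its partner SLIRP, keeps mitochondrial messenger RNAs stable. NRF1 (nuclear respiratory factor 1) and GABPA, the DNA-binding subunit of GABP, are nuclear transcription factors known to act on promoters of many of these genes. Nrf1 here is not Nfe2l1, and GABP (also called NRF-2) is not Nfe2l2, although the names are often exchanged. The heart relies on this system because its muscle turns to oxidative metabolism around birth.

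The promoters were looked at first, because the last pair of genes encodes factors that are known to bind the promoters of the others. All 10 genes matched the RefSeq promoter table (build GRCm38.p6), with 12 windows of 300 bases, from 250 bases before the start site to 50 after it. Both strands were searched for an NRF1 core spelled GCGCANGCG and a GABP core spelled CCGGAAG. The 4 stretches below run 5′ to 3′ on the gene's strand from position -130 to position 25, where 1 is the start site and there is no position 0, and capitals mark the matched cores on either strand. Tfam at chr10:71238020-71238174 and Polg at chr7:79466249-79466403 hold a GABP core. Polrmt at chr10:79746557-79746711 holds a GABP core and a pair of overlapping NRF1 cores. Tfb2m at chr1:179546252-179546406 holds an NRF1 core. All 4 lie on the minus strand. They are shown because they belong to the packaging factor, both parts of the transcription machinery and the replicative polymerase. These 4 and the bounds of the stretches were chosen after the matches were seen.
Tfam: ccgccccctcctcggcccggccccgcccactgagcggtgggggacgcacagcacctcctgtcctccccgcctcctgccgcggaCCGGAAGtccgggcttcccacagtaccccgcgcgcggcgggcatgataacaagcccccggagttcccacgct
Polrmt: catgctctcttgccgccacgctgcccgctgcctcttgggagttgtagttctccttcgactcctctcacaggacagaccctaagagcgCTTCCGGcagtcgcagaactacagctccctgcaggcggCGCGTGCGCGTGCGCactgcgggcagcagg
Polg: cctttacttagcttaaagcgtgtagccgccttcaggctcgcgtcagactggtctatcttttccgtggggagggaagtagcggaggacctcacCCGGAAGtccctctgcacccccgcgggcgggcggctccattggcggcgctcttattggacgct
Tfb2m: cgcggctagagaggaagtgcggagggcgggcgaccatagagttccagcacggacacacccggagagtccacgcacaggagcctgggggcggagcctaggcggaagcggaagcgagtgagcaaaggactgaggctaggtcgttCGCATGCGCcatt
The GABP core lay 47 to 41 bases before the start site in Tfam, 43 to 37 before it in Polrmt and 38 to 32 before it in Polg. The overlapping NRF1 cores of Polrmt ran from -5 to 4 and from 2 to 10, across the start site, and the NRF1 core of Tfb2m lay after it, from 13 to 21. GC content of the stretches was 74.8% in Tfam, 65.2% in Polrmt, 61.9% in Polg and 65.2% in Tfb2m.

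Over the whole windows, 6 of the 10 genes held a GABP core, against 8.86% of all 32851 promoter windows. They were Tfam, Polrmt, Polg, Polg2, Gabpa and Twnk, the last only in its second window. Here and below a gene counted if any of its windows matched, while the background counts single windows, so the units differ. An NRF1 core stood in 2 of the 10, Polrmt and Tfb2m, against 6.25% of windows. The promoter of Gabpa itself held the YY1 core AANATGGCG, the only such match among the 10, against 2.38% of windows, and 7 of the 10 held a GC box spelled GGGCGG, against 35.7%. The NRF1 and GABP cores overlapped no other searched motif. Lrpprc, Nrf1 and Tfb1m held neither the NRF1 nor the GABP core in these windows. A match is a description of letters and not a measured binding site.

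On GRCm38, by Ensembl identifier in GENCODE M21, all 10 are protein-coding genes. Tfam (ENSMUSG00000003923) lies on chromosome 10 from 71225464 to 71238280 and Polrmt (ENSMUSG00000020329) on the same chromosome from 79736123 to 79746581. Tfb1m (ENSMUSG00000036983) and Lrpprc (ENSMUSG00000024120) lie on chromosome 17, from 3519256 to 3557781 and from 84705247 to 84790789. Tfb2m (ENSMUSG00000026492) lies on chromosome 1 from 179528055 to 179546267, Polg (ENSMUSG00000039176) on chromosome 7 from 79446231 to 79466362, and Polg2 (ENSMUSG00000020718) on chromosome 11 from 106768253 to 106779537. These 7 are on the minus strand. Twnk (ENSMUSG00000025209) on chromosome 19 from 45005663 to 45012762, Nrf1 (ENSMUSG00000058440) on chromosome 6 from 30047988 to 30153458 and Gabpa (ENSMUSG00000008976) on chromosome 16 from 84834925 to 84863779 are on the plus strand.

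Total counts per library ran from 61443414 to 77237333. The share of counts from the 37 genes of the mitochondrial chromosome ran from 19.9% to 41.4%, and E16.5 replicate 2 had the lowest share, below all 3 E18.5 libraries, while the other E16.5 libraries had 41.4% and 35.0%. Libraries correlated at 0.911 to 0.949 in log2 CPM (counts scaled to the library size) over the tested genes, which are not independent replicates. Heart muscle markers were abundant at both stages, with a summed level of 33510 to 41770 CPM in E16.5 hearts and 37990 to 46150 CPM in E18.5 hearts. Markers of the other heart cell types were also present, and no listed marker was missing from the tested genes. Markers of neighbouring organs were low beside those of heart muscle, but were found in all 6 libraries. The 5 liver genes summed to 28.1 to 98.2 CPM and the 4 lung genes to 85.7 to 158 CPM. For comparison, 6 epicardium genes summed to 89.3 to 102 CPM in E16.5 hearts and 147 to 198 CPM in E18.5 hearts.

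Levels of different genes were compared in FPKM, fragments per kilobase of transcript relative to all fragments of a library, as deposited. Polrmt had the highest level of the 10 at both stages, with 11.4 ± 1.5 FPKM at E16.5 and 11.1 ± 0.479 FPKM at E18.5 (SD, n = 3 libraries each). Polg2 had the lowest, with 0.799 ± 0.252 FPKM and 0.636 ± 0.202 FPKM. A middle group of Tfb2m, Gabpa, Twnk, Polg, Tfam and Lrpprc had means from 4.43 to 6.96 FPKM at E16.5, and from 5.25 to 6.34 FPKM at E18.5. Tfb1m followed with 1.96 ± 0.194 and 1.74 ± 0.251 FPKM, and Nrf1 with 1.63 ± 0.374 and 1.59 ± 0.257 FPKM. At both stages only 3 steps in this order separated neighbours whose libraries did not overlap: Polrmt above the next gene, Lrpprc above Tfb1m, and Nrf1 above Polg2. Within the middle group the ranges of all neighbours overlapped, and the order differed between the stages. Library by library, Gabpa exceeded Twnk and Twnk exceeded Polg in all 3 E16.5 libraries, and Tfb2m exceeded Twnk and Twnk exceeded Tfam in all 3 E18.5 libraries. Among the tested genes, Polrmt stood at the 86.2nd percentile of mean FPKM, the middle group between the 70.2nd and the 76.6th, and Tfb1m, Nrf1 and Polg2 at the 49.5th, the 46.6th and the 33.3rd. The median tested gene had 1.89 FPKM.

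**Figure D1:**
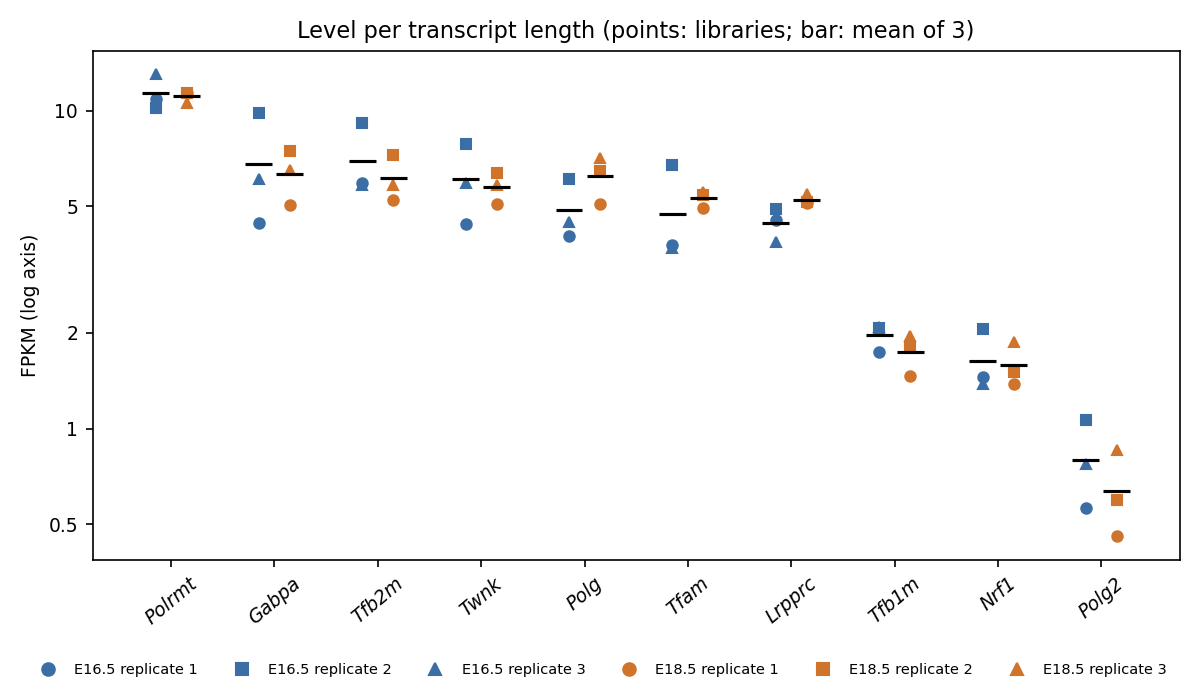
Level of each of the 10 genes in FPKM (log axis), with points for single libraries of each stage and bars for the stage mean. Polrmt lies above the others at both stages, Tfb1m, Nrf1 and Polg2 lie lowest, and the 6 genes between them overlap.

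The question the design poses is which genes differ between the stages. None of the 10 passed: edgeR's quasi-likelihood test called 0 of 10 at an adjusted p under 0.05, where 0.15% of all tested genes were called (30 of 19959, with 19 or 0.0952% higher and 11 or 0.0551% lower at E18.5), and 0 of 10 had an unadjusted p under 0.05, where 9.53% of all genes did, 4.83% higher and 4.7% lower. DESeq2 and limma also called 0 of the 10. The number of genes called over the whole table was so low that the absence of calls does not set these 10 apart. The estimates were small, from -0.41 to 0.26 in log2 change (E18.5 over E16.5), with adjusted p from 0.542 to 0.847 by edgeR. They lay above 0 for Tfam, Polg and Lrpprc and below 0 for the other 7. The median log2 change of the 10 was -0.15, beside a median of -0.0019 over all genes, of which 49.8% lay above 0 and 50.2% below. On log2(FPKM + 1) with limma the median was -0.03 for the 10 and 0.05 for all genes. Summed over the 10 genes, the level was 295 to 316 CPM in E16.5 hearts and 299 to 305 CPM in E18.5 hearts, so the sum of the E18.5 libraries fell within the E16.5 range. In whole hearts, fewer cells of a type and less RNA per cell cannot be told apart. CPM here and below are scaled by TMM factors, which set libraries on one scale through the bulk of their genes.

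**Figure D2:**
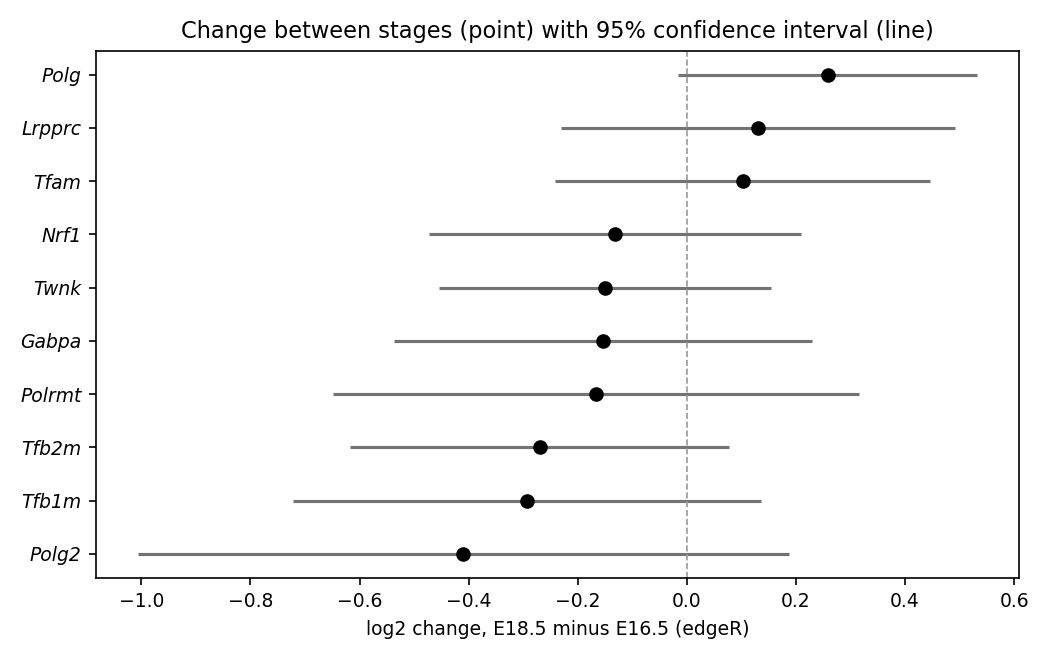
Log2 change of each of the 10 genes, E18.5 over E16.5, with its 95% interval from the edgeR fit. All 10 intervals include 0, and that of Polg comes nearest to leaving it out, with a lower bound of -0.02.

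Among the genes of transcription, Polrmt, the RNA polymerase, measured 69.2, 42.6 and 73.0 CPM in E16.5 replicates 1 to 3 and 62.4, 53.6 and 48.7 CPM in E18.5 replicates 1 to 3. The E16.5 libraries held both the highest and the lowest values, and all 3 E18.5 libraries lay between them. The log2 change was -0.17 ± 0.21 (SE), with a 95% interval from -0.65 to 0.32 and an adjusted p of 0.819. With 1 library left out it ran from -0.37 (without E16.5 replicate 2, adjusted p = 0.143) to -0.04 (without E16.5 replicate 3, adjusted p = 0.994). Without E16.5 replicate 2, 371 genes (1.78%) were called, and 0 of the 10. Polrmt and Tfb1m had unadjusted p of 0.0222 and 0.0483 by edgeR there. The share of all genes with an unadjusted p under 0.05 in that fit is not given here, so these values have no background.

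Tfam, which packages the chromosome and activates its promoters, measured 22.9, 26.7 and 19.6 CPM in E16.5 hearts and 25.8, 24.2 and 24.3 CPM in E18.5 hearts. Its E18.5 values again lay inside the range of the E16.5 libraries and were close to each other, at 24.8 ± 0.873 CPM against 23.1 ± 3.57 CPM (SD, n = 3). The log2 change was 0.10 ± 0.15 (SE; 95% interval from -0.24 to 0.45, adjusted p = 0.847), and with 1 library left out it ran from -0.01 (without E16.5 replicate 3) to 0.22 (without E16.5 replicate 2). As a fold, the interval ran from 0.846 to 1.36.

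Tfb2m, the promoter-opening factor, measured 22.6, 22.9 and 19.5 CPM in E16.5 hearts and 17.2, 20.4 and 16.1 CPM in E18.5 hearts. The stages overlapped only through E18.5 replicate 2, which lay above E16.5 replicate 3. Its log2 change was -0.27 ± 0.15 (SE; 95% interval from -0.62 to 0.08, adjusted p = 0.605). A copy named Gm1818, 99.3% identical over 1187 of the 2449 bases of a Tfb2m transcript, carried 3.75% as many counts, so a small part of the Tfb2m count may be shared with it.

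Tfb1m, the ribosomal RNA methyltransferase, measured 8.53, 6.67 and 8.94 CPM in E16.5 hearts and 6.18, 6.58 and 6.93 CPM in E18.5 hearts. E16.5 replicates 1 and 3 lay above all E18.5 libraries and replicate 2 lay among them. The log2 change was -0.29 ± 0.19 (SE; 95% interval from -0.72 to 0.14, adjusted p = 0.645), and with 1 library left out it ran from -0.41 (without E16.5 replicate 2, adjusted p = 0.210) to -0.22 (without E16.5 replicate 3). Tfb1m overlaps Tiam2 on the other strand over 142 bases. Tiam2 carried 104% as many counts and had an estimate in the other direction, 0.63 ± 0.24 (SE, adjusted p = 0.460), so the Tfb1m value is uncertain if the counting did not use strand.

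**Figure D3:**
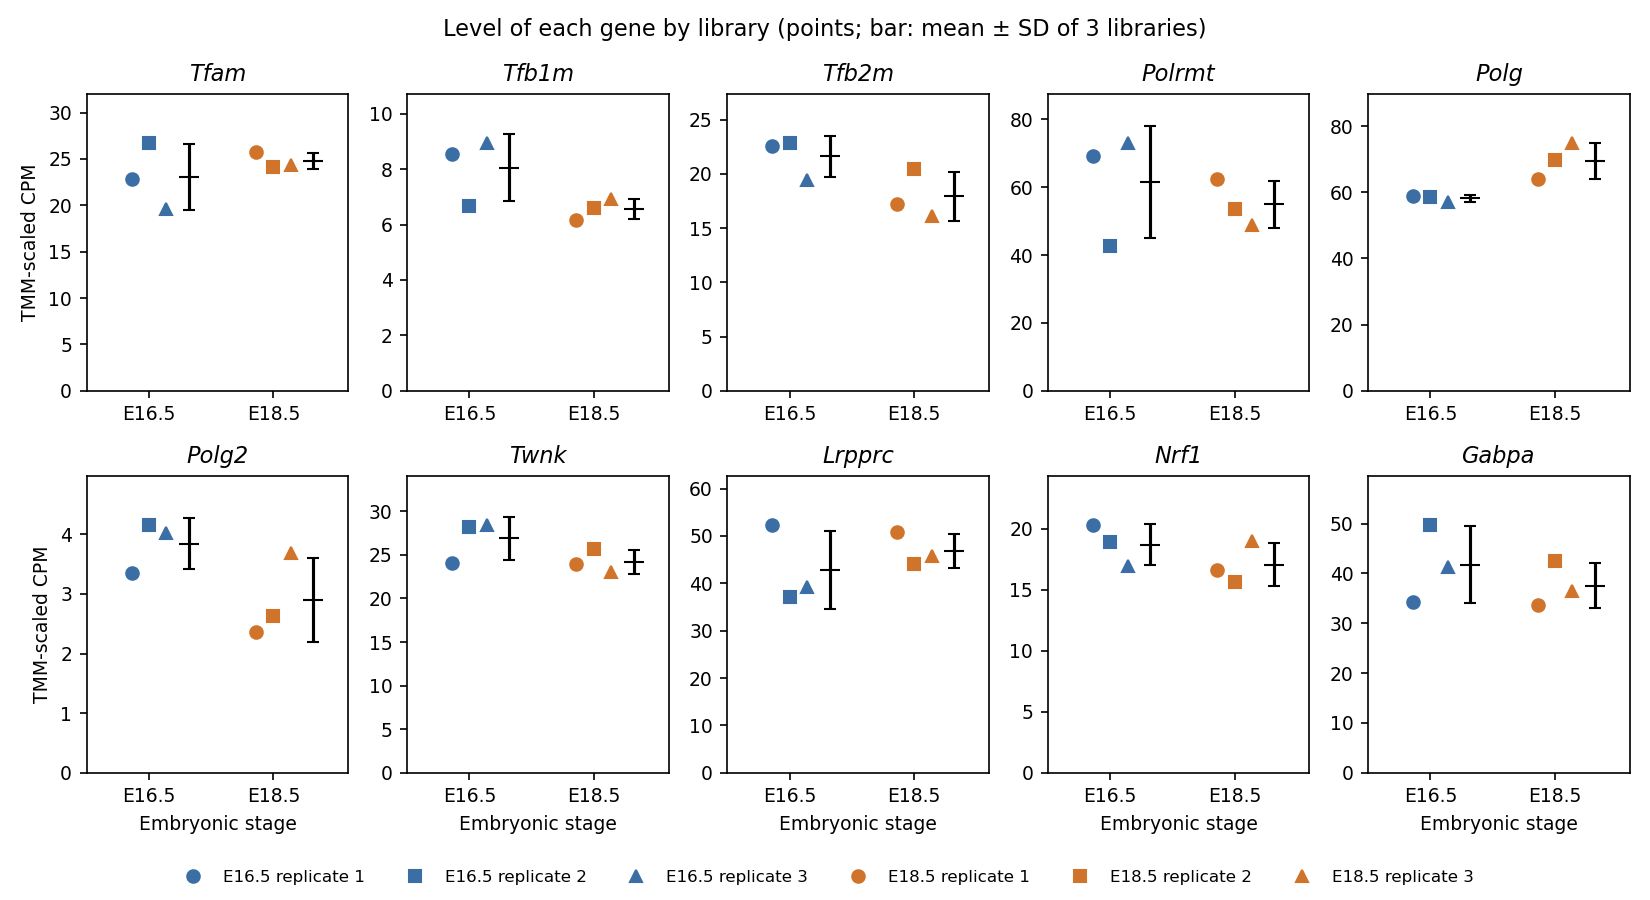
TMM-scaled CPM of each of the 10 genes in the 6 libraries, one panel per gene, with points for libraries (shape shows the replicate) and bars for stage means with SD. On this scale Polg is the only gene whose 3 E18.5 libraries, at 64.0 to 74.9 CPM, all lie above its E16.5 libraries, at 57.0 to 58.9 CPM.

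Among the genes of replication, Polg, the catalytic subunit of the DNA polymerase, measured 58.9, 58.5 and 57.0 CPM in E16.5 hearts and 64.0, 69.8 and 74.9 CPM in E18.5 hearts. On this scale it was the only 1 of the 10 whose stages did not overlap. Of all genes, 16.5% did not overlap in CPM, and 8.45% did so with E18.5 higher. In FPKM the stages of Polg overlapped, at 4.035 to 6.108 in E16.5 hearts and 5.086 to 7.086 in E18.5 hearts. The fold was 1.2 (95% interval from 0.989 to 1.45), a log2 change of 0.26 ± 0.12 (SE), with an unadjusted p of 0.0620 and an adjusted p of 0.542 by edgeR. Beside it, the summed markers of 3 other cell types did not overlap between the stages either: 7 fibroblast genes summed to 2253 to 3538 CPM in E16.5 hearts and 3783 to 4960 CPM in E18.5 hearts, 6 smooth muscle and pericyte genes to 563 to 639 and 807 to 864 CPM, and 6 epicardium genes to 89.3 to 102 and 147 to 198 CPM. Of these markers only Krt19, a keratin of the epicardium, was called, with a log2 change of 1.23 ± 0.14 (SE, adjusted p = 0.0219). Their part in the Polg values was not tested. The Polg gene overlaps Fanci on the other strand, which carried 10.4% as many counts and had a log2 change of 0.04.

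Polg2, the accessory subunit that holds the polymerase on its template, was thinly covered, with 157 to 337 counts per library. It measured 3.35, 4.15 and 4.02 CPM in E16.5 hearts and 2.36, 2.63 and 3.69 CPM in E18.5 hearts, where only E18.5 replicate 3 reached into the E16.5 range. The estimate was the lowest of the 10 and had the widest interval, a log2 change of -0.41 ± 0.26 (SE; 95% interval from -1.01 to 0.19, adjusted p = 0.644). In fold terms the interval ran from 0.498 to 1.14. With 1 library left out the log2 change ran from -0.62 (without E18.5 replicate 3) to -0.29 (without E18.5 replicate 1). Polg2 overlaps Milr1 on the other strand over 542 bases, and Milr1 carried 23.4% as many counts, with a log2 change of -0.44 ± 0.45 (SE, adjusted p = 0.778).

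Twnk, the helicase, measured 24.0, 28.2 and 28.4 CPM in E16.5 hearts and 24.0, 25.7 and 23.0 CPM in E18.5 hearts. The stages overlapped through E16.5 replicate 1, and the log2 change was -0.15 ± 0.13 (SE; 95% interval from -0.45 to 0.15, adjusted p = 0.737). It was -0.23 without E16.5 replicate 1. Twnk overlaps Mrpl43, a gene of the mitochondrial ribosome, head to head on the other strand over 780 bases. Mrpl43 carried 50.7% as many counts, with a log2 change of 0.28 ± 0.28 (SE, adjusted p = 0.767).

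Lrpprc, the stability factor of mitochondrial messenger RNAs, measured 52.3, 37.1 and 39.2 CPM in E16.5 hearts and 50.9, 44.1 and 45.7 CPM in E18.5 hearts. E16.5 replicate 1 was the highest library and the other E16.5 libraries the lowest, so the stages overlapped in CPM. In FPKM they did not, at 3.862 to 4.895 in E16.5 hearts and 5.114 to 5.461 in E18.5 hearts. The share of all genes without overlap in FPKM was not counted. The log2 change was 0.13 ± 0.16 (SE; 95% interval from -0.23 to 0.49, adjusted p = 0.809), and it ran from 0.04 (without E16.5 replicate 2) to 0.29 (without E16.5 replicate 1) when 1 library was left out. Its partner Slirp had an estimate of -0.18 ± 0.23 (SE, adjusted p = 0.828).

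Of the nuclear regulators, Nrf1 measured 20.3, 18.9 and 16.9 CPM in E16.5 hearts and 16.6, 15.6 and 19.0 CPM in E18.5 hearts. Its stages overlapped, with a log2 change of -0.13 ± 0.15 (SE; 95% interval from -0.47 to 0.21, adjusted p = 0.792). Leaving out 1 library gave -0.22 (without E18.5 replicate 3) to -0.07 (without E18.5 replicate 2). The similarly named Nfe2l1 and Nfe2l2 had estimates of 0.02 ± 0.12 and 0.12 ± 0.15 (SE), with adjusted p of 0.976 and 0.821.

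Gabpa measured 34.3, 49.7 and 41.3 CPM in E16.5 hearts and 33.6, 42.6 and 36.5 CPM in E18.5 hearts, with wide overlap. The log2 change was -0.15 ± 0.17 (SE; 95% interval from -0.54 to 0.23, adjusted p = 0.786). Leaving out 1 library gave -0.29 (without E16.5 replicate 1) to -0.008 (without E16.5 replicate 2). Gabpb1, the activating partner subunit of GABP, measured 42.1 ± 4.53 CPM in E16.5 hearts and 35.0 ± 0.325 CPM in E18.5 hearts (SD, n = 3), a log2 change of -0.27 ± 0.13 (SE, adjusted p = 0.547). The value of Gabpa is uncertain, because it overlaps Atp5j, an ATP synthase gene on the other strand, over 701 bases. Atp5j carried 754% as many counts as Gabpa and had an estimate of 0.41 ± 0.15 (SE, adjusted p = 0.431), and the sources used here do not state if strand was used to assign reads.

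The balance between partner genes was taken within each library, which removes the library's scaling. Of 6 ratios in FPKM, 2 did not overlap between the stages, and both have Polg below the line. The share of ratios of other genes without overlap was not counted, so this number has no direct background. Among single genes, 16.5% of all tested did not overlap in CPM. Polg was itself such a gene in CPM, higher at E18.5. In FPKM, the scale of the ratios, its stages overlapped, at 4.035 to 6.108 and 5.086 to 7.086. Its mean FPKM was still higher at E18.5, 6.217 against 4.866, which lowers both ratios there. Polg2 over Polg was 0.139, 0.174 and 0.174 in E16.5 libraries and 0.0900, 0.0919 and 0.121 in E18.5 libraries. The mean log2 ratio was -2.63 ± 0.19 at E16.5 and -3.32 ± 0.24 at E18.5 (SD, n = 3), a difference of -0.69, with p = 0.1 in a two-sided exact permutation test and 0.3 adjusted over the 6 ratios. The accessory subunit was thus lower relative to the catalytic subunit in every E18.5 library than in any E16.5 library, but 3 libraries against 3 cannot give a p below 0.1.

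Twnk over Polg was 1.09, 1.29 and 1.33 in E16.5 libraries and 1.0, 0.986 and 0.822 in E18.5 libraries, so the helicase exceeded the polymerase in all 3 E16.5 libraries and lay level with it or below in the E18.5 libraries. The log2 difference was -0.40, again with an exact permutation p of 0.1 and 0.3 after adjustment. Both ratios share Polg and are not independent of each other or of the Polg values above. They are also uncertain if the counting did not use strand. Polg shares a stretch of 401 transcript bases with Fanci, which carried 10.4% as many counts. Mrpl43, which overlaps the span of Twnk, carried 50.7% as many counts. Milr1, which overlaps the span of Polg2, carried 23.4%. The search for shared transcript stretches of at least 100 bases listed neither Mrpl43 nor Milr1.

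The other 4 ratios overlapped. Tfb2m over Tfb1m ran from 2.80 to 4.41 at E16.5 and from 3.0 to 4.0 at E18.5, a log2 difference of 0.01 (exact permutation p = 1.0). Gabpa over Nrf1 ran from 3.06 to 4.76 and from 3.48 to 4.95, a difference of -0.0092 (exact permutation p = 1.0). The ratios with Tfb1m and with Gabpa are uncertain if the counting did not use strand. Tfb1m shares 142 transcript bases with Tiam2, and Gabpa shares 175 with Atp5j. Lrpprc over Polrmt ran from 0.296 to 0.480 and from 0.45 to 0.518, a difference of 0.28 (exact permutation p = 0.3, adjusted 0.6). Tfam over Polrmt ran from 0.283 to 0.662 and from 0.436 to 0.528, a difference of 0.25 (exact permutation p = 0.6, adjusted 0.9). The wide E16.5 range of this last ratio came from replicate 2, at 0.662, against 0.349 and 0.283 in replicates 1 and 3.

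**Figure D4:**
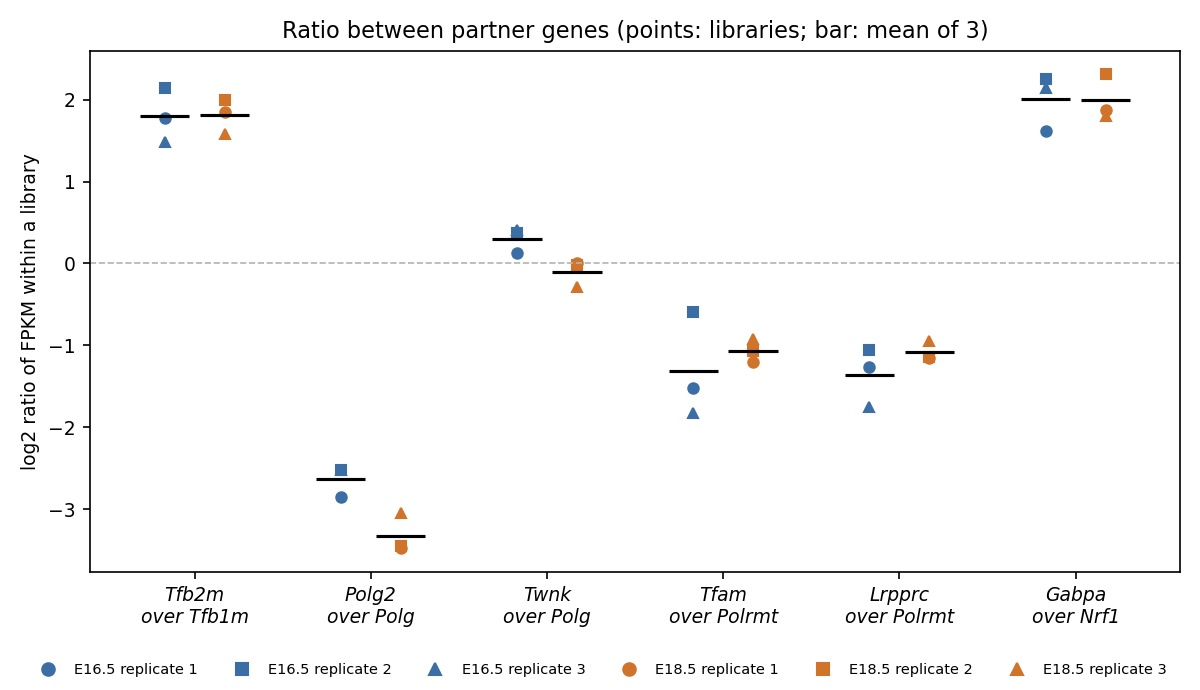
Ratios of partner genes in FPKM within each library, on a log2 axis, with points for libraries and bars for stage means. Polg2 over Polg and Twnk over Polg are lower in all E18.5 libraries than in any E16.5 library, and the other 4 ratios overlap.

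Polrmt, Tfam and Tfb2m make the transcripts of the mitochondrial chromosome, so their levels were set beside the mitochondrial share of each library. From the highest share to the lowest the libraries are E16.5 replicate 1 (41.4%), E16.5 replicate 3 (35.0%), E18.5 replicate 1 (33.5%), E18.5 replicate 2 (26.7%), E18.5 replicate 3 (25.2%) and E16.5 replicate 2 (19.9%). The 13 messenger RNAs of the chromosome made up nearly all of it, from 40.3% down to 19.4%. In this order Polrmt measured 69.2, 73.0, 62.4, 53.6, 48.7 and 42.6 CPM, so that 1 of the 15 pairs of libraries was out of order. E16.5 replicate 2, with the lowest share, had the lowest Polrmt level of all. This order was noticed after the values were seen, and 3.69% of all tested genes (736) followed the share with at most 1 pair out of order, while 4.55% followed the reverse order as closely.

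With counts outside the mitochondrial chromosome as the total, and with median-ratio size factors, Polrmt also had 1 pair out of order. On plain CPM it had 3 and in FPKM 4, where the highest library exceeded the lowest 1.28 times in place of 1.71 times. Plain CPM and FPKM count the mitochondrial fragments in the total, so a high share lowers the values of all other genes in that library. Tfam went the other way, with 22.9, 19.6, 25.8, 24.2, 24.3 and 26.7 CPM in the same order and 12 of 15 pairs out of order. With median-ratio size factors it had 11 out. On TMM-scaled CPM Gabpa also had 11 out, and Polg and Polg2 had 10 each. The share of all genes with at least 12 pairs out was not counted. Tfb2m followed neither order, with 7 of 15 pairs out. The ratio of Tfam over Polrmt, which needs no scaling, was higher the lower the share, with 1 of 15 pairs out of that order. Its highest value was 2.34 times its lowest. The ratio is built from the same Tfam and Polrmt values, so it is not a separate observation. How many other ratios follow the share as closely was not counted. With the share as a term beside the stage, the log2 change of Polrmt was -0.05 (adjusted p = 0.853). That of Polg was 0.25 (adjusted p = 0.223, unadjusted p = 0.0250 by edgeR). In that fit 310 genes (1.55%) were called, and the share of all genes with an unadjusted p under 0.05 is not given here. Among the other genes, the pairs out of order on TMM-scaled CPM ranged from 4 in Lrpprc to 11 in Gabpa.

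**Figure D5:**
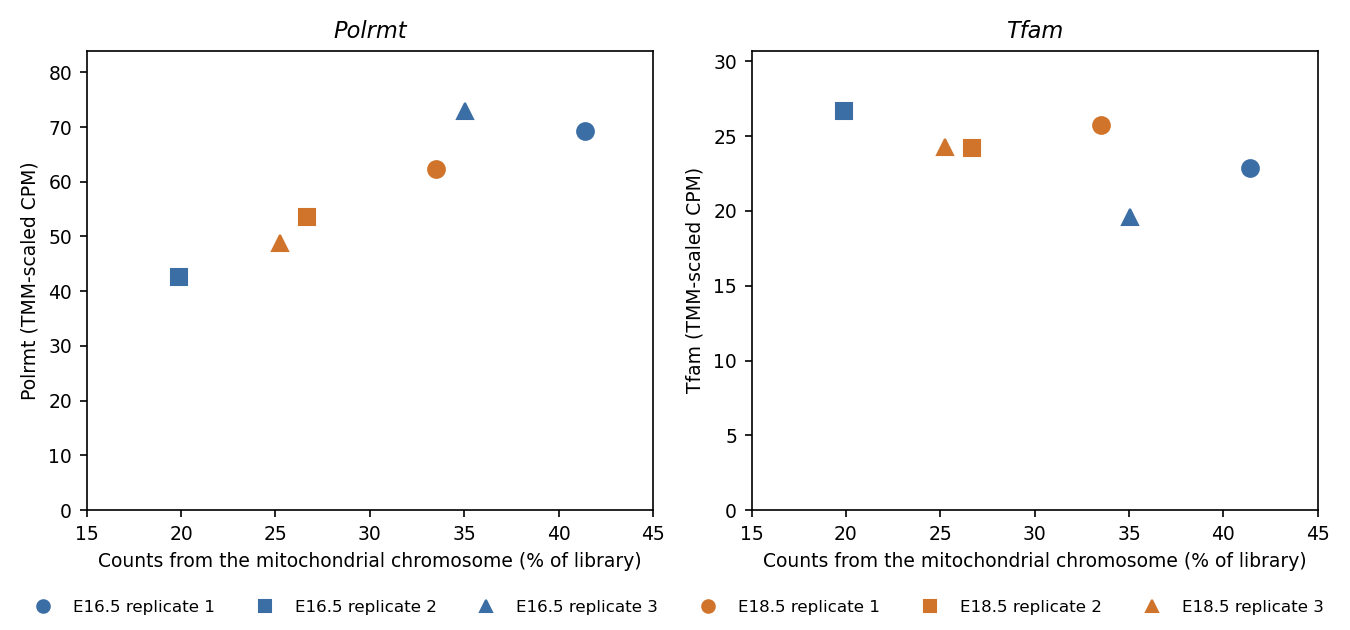
Polrmt and Tfam in TMM-scaled CPM against the share of each library's counts from the mitochondrial chromosome in percent, with points for the 6 libraries coloured by stage. Polrmt is lowest, at 42.6 CPM, in the library with the lowest share, 19.9%, where Tfam is highest, at 26.7 CPM.

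The 13 messenger RNAs of the mitochondrial chromosome were below 0 in log2 change in 13 of 13 cases, with a median of -0.35, and 0 of 13 had an unadjusted p under 0.05. Most of them come from the same long transcripts, and together they make up most of the share, so they are not separate observations. The smallest p-values belonged to mt-Nd4l at -0.56 ± 0.39, mt-Atp8 at -0.48 ± 0.37, mt-Nd5 at -0.47 ± 0.42 and mt-Nd4 at -0.40 ± 0.37 (SE), with adjusted p from 0.675 to 0.751. All of these except mt-Atp8, which belongs to the ATP synthase, encode complex I subunits. Per library, mt-Nd4 measured 37440, 13760 and 31780 CPM in E16.5 hearts and 27520, 19000 and 16510 CPM in E18.5 hearts, with the lowest value in E16.5 replicate 2.

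A list of 22 further genes of the replisome and nucleoid, which also holds the nucleotide carriers Slc25a33 and Slc25a36, had all 22 tested, 8 above and 14 below 0, with a median of -0.14. None was called by edgeR, and 1 had an unadjusted p under 0.05, where 9.53% of all genes did. It was Slc25a33, a carrier that brings pyrimidine nucleotides into mitochondria, with 0.734, 1.38 and 1.66 CPM in E16.5 hearts and 1.83, 2.76 and 2.90 CPM in E18.5 hearts, a log2 change of 0.99 ± 0.38 (SE, adjusted p = 0.466). Its relative Slc25a36, which carries the same nucleotides, had an estimate in the other direction, from 247 ± 30.6 to 197 ± 15.5 CPM (SD, n = 3; log2 change -0.32, adjusted p = 0.540), and its stages did not overlap. Lig3, the DNA ligase of mitochondria, had -0.41 ± 0.21, and Top1mt, their topoisomerase, -0.33 ± 0.18 (SE).

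None of the direct partners was called. Ssbp1, which coats single-stranded mitochondrial DNA, had a log2 change of -0.23 ± 0.18, and Mgme1, a nuclease that trims replication ends, -0.27 ± 0.20 (SE). The elongation factor gene Tefm had 0.08 ± 0.39, and Lonp1, the protease that degrades TFAM, had -0.02 ± 0.12 (SE), the narrowest of these. Lonp1 measured 62.4 ± 2.19 and 61.7 ± 3.10 CPM (SD, n = 3).

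Of 12 other genes that supply nucleotides to mitochondria, 5 lay above and 7 below 0, with a median of -0.11 and 0 called. The stages did not overlap in 4 of the 12, all lower at E18.5, where 8.02% of all genes did so. These 4 were Nme4, a mitochondrial nucleoside diphosphate kinase, Mpv17, an inner-membrane protein whose loss depletes mitochondrial DNA, and Dguok and Tk2, the deoxynucleoside kinases of the salvage pathway. Nme4 measured 13.8, 13.8 and 14.4 CPM in E16.5 hearts and 11.8, 9.55 and 11.5 CPM in E18.5 hearts (log2 change -0.35 ± 0.15 SE, unadjusted p = 0.0456, adjusted p = 0.510 by edgeR). Dguok measured 22.5, 17.8 and 19.4 CPM and 17.3, 13.4 and 16.5 CPM (log2 change -0.34 ± 0.16 SE, adjusted p = 0.553). The estimate was -0.31 ± 0.14 for Mpv17 and -0.22 ± 0.14 for Tk2 (SE), with adjusted p of 0.546 and 0.650. Tk2 is named because of this overlap count, after its values were seen. Sucla2, a succinyl-CoA ligase subunit, had 0.44 ± 0.22 (SE, adjusted p = 0.564).

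Of 20 genes of mitochondrial RNA processing, 13 lay above and 7 below 0, with a median of 0.16 and 0 called. Unadjusted p under 0.05 by edgeR was reached by 2, both higher at E18.5, where 4.83% of all genes were higher with such a p. Rexo2, which degrades very short RNAs, measured 28.6, 26.8 and 28.8 CPM in E16.5 hearts and 36.2, 39.5 and 33.7 CPM in E18.5 hearts, a log2 change of 0.38 ± 0.12 (SE, adjusted p = 0.383). Pde12, which shortens poly(A) tails, measured 5.31, 11.3 and 8.42 CPM and 13.6, 15.1 and 14.4 CPM, a log2 change of 0.78 ± 0.26 (SE, adjusted p = 0.383). Neither gene's stages overlapped. Of the 20 genes, 4 were higher at E18.5 without overlap, among them Pnpt1 and Elac2, where 8.45% of all genes were. Ptcd3, a protein of the small mitochondrial ribosomal subunit, had 0.34 ± 0.16, and Pnpt1, the polynucleotide phosphorylase, 0.19 ± 0.11 (SE).

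Among 18 regulators, 11 lay above and 7 below 0, with a median of 0.05 and 0 called. Pprc1, a coactivator of the PGC-1 family that works with NRF1, measured 29.8, 28.9 and 29.5 CPM in E16.5 hearts and 41.5, 42.3 and 46.5 CPM in E18.5 hearts. This was a log2 change of 0.56 ± 0.12 (SE), with an unadjusted p of 0.00111 and an adjusted p of 0.164 by edgeR. Its stages lay far apart relative to their spread, yet it did not pass over all genes. The transcription factor Myc measured 18.3, 23.5 and 17.4 CPM and 30.4, 25.6 and 32.7 CPM (log2 change 0.58 ± 0.17 SE, adjusted p = 0.330). Ppargc1a, the coactivator best known for driving mitochondrial growth, had 0.10 ± 0.13 (SE, adjusted p = 0.824), with overlapping stages. The nuclear receptor gene Esrrg had -0.43 ± 0.30 (SE, adjusted p = 0.674).

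Of 16 genes known as targets of NRF1 or GABP, 15 lay above 0 and only Cox6b1 below it, with a median log2 change of 0.33. Of all genes, 49.8% lay above 0. None of the 16 was called by edgeR. This list was named from background knowledge, but with earlier results of these data known, and carries no test here. Some varied together: in E16.5 replicates 1 to 3, Cox5a measured 17.3, 70.9 and 22.7 CPM and Sdhd 50.4, 113 and 48.6 CPM. Cox5b, Cox6b1, Cox7c and Cox17 instead had their lowest value of the 6 libraries in E16.5 replicate 2. The 15 are therefore not separate observations. Unadjusted p under 0.05 by edgeR was reached by 4, all higher at E18.5, where 4.83% of all genes were higher with such a p. Sdhb, the iron-sulfur subunit of complex II, measured 163, 177 and 168 CPM in E16.5 hearts and 216, 218 and 248 CPM in E18.5 hearts, a log2 change of 0.42 ± 0.13 (SE, adjusted p = 0.359). Cox7b, a complex IV subunit, measured 227 ± 1.25 and 301 ± 21.7 CPM (SD, n = 3; log2 change 0.41, adjusted p = 0.367). Cytochrome c (Cycs) had 0.69 ± 0.23, with overlapping stages, and Cox6c had 0.33 ± 0.13 (SE). The sum of the 16 was 2452 to 3040 CPM in E16.5 hearts and 3295 to 3424 CPM in E18.5 hearts, without overlap, while Nrf1 and Gabpa themselves overlapped. Heart muscle markers had 7 of 8 estimates above 0 with overlapping sums, and the fibroblast, smooth muscle and epicardium sums given beside Polg did not overlap. The part of these cell types was not tested.

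Genes of nuclear DNA replication, set beside the mitochondrial replisome, had 9 of 17 above and 8 below 0, with a median of 0.03 and 0 called. Their 3 smallest p-values were all of genes lower at E18.5, with unadjusted p under 0.05 by edgeR and stages that did not overlap. Of all genes, 4.7% were lower with such a p, and 8.02% were lower without overlap. Gins2, a subunit of the replicative helicase, measured 46.0, 39.3 and 42.1 CPM in E16.5 hearts and 21.8, 31.1 and 22.6 CPM in E18.5 hearts, a log2 change of -0.76 ± 0.17 (SE, adjusted p = 0.185). Gins1, of the same complex, had -0.48 ± 0.18, and Mcm7, of the helicase ring, -0.39 ± 0.11 (SE). Pcna, the sliding clamp, had 0.43 ± 0.26 (SE, adjusted p = 0.631) with overlapping stages.

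The genes most like 4 of the 10 across the 6 libraries were taken as those with the smallest root mean square difference in centred log2 CPM, among 10481 genes with a mean of at least 5 CPM. For Tfam they were Vps26a (0.0250), Snx17 (0.0275) and Commd1 (0.0296). For Polrmt they were Noc2l (0.0384), Tmem25 (0.0465) and Nasp (0.0486). For Polg they were Hip1r (0.0307), N4bp3 (0.0338) and Adnp2 (0.0351), and for Nrf1 they were Pias1 (0.0430), Map7 (0.0450) and Ano10 (0.0520). Polg2, below 5 CPM, was not ranked. Of the other genes of the 10 that were ranked, the closest to Tfam was Polg at rank 1822, the closest to Polrmt was Tfb1m at rank 1671, the closest to Polg was Tfam at rank 1946, and the closest to Nrf1 was Tfam at rank 2389. With 6 libraries many genes come close by number alone, so this is a description of these libraries.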

How the data were processed

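Poly(A) RNA of 6 mouse heart libraries was measured, 3 at E16.5 and 3 at E18.5, grouped by the sample titles. Per the file headers, the authors deposited 1 table of estimated counts and FPKM values. The counts are whole numbers and needed no rounding. Dividing counts by deposited FPKM gave a unit proportional to the library total within 1.32%, so mitochondrial fragments are in the FPKM total. Named without roles in the submitters' processing notes are HISAT2 2.0.4, StringTie 1.3.4d, cutadapt 1.9, UMI-tools and the build mm9. Use of molecular identifiers or strand in counting is not stated there. The table's gene coordinates fit another build than mm9 and are not printed; positions come from GENCODE M21 (GRCm38) by Ensembl identifier.

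Genes passing edgeR's filterByExpr (19959) were fitted with edgeR 4.0.16 in R 4.3.3 (TMM scaling, quasi-likelihood F test, stage only) on all 6 libraries, with Benjamini-Hochberg adjustment over all of them and a threshold of 0.05. Intervals are at 95%. The fit was tested on simulated data. The biological coefficient of variation was 34.3%. Partner ratios were compared with a two-sided exact permutation test, adjusted over 6 pairs. Alternatives were DESeq2 1.42.0, limma 3.58.1 on log2 FPKM with pseudocounts of 1 and 0.1, other scalings and filters, and leaving out each library. Copies were sought with BLAST 2.17.0 (at least 95% identity over 100 bases), and overlapping genes from the deposited coordinates.

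The 10 genes and the lists were chosen with earlier results of these data known. All 10 are named, with up to 4 genes of smallest p per other list, direct partners, and the 3 genes most like Tfam, Polrmt, Polg and Nrf1. Overlapping genes, their copies, Nfe2l1, Nfe2l2, Krt19, Cox6b1 and Tk2 were added after values were seen. Marker lists for endothelium (500 to 603 CPM at E16.5, 599 to 655 CPM in E18.5 hearts), macrophages (58.5 to 67.4 and 57.8 to 82.0 CPM) and red cells (9420 to 23790 and 8992 to 21110 CPM) were also summed.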

Additional observations from a re-analysis of the deposited data

How the results depend on the processing

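Under all 15 alternatives 0 of the 10 genes were called. The direction held in 15 of 15 for 9 of them and in 14 for Tfam, which was -0.0114 without E16.5 replicate 3 and 0.2237 without E16.5 replicate 2. Genes called over the table, 30 in the report, numbered 408 with DESeq2's Wald test, 310 with the mitochondrial share as a term, 10 and 18 with limma at pseudocounts of 1 and 0.1, and 8 to 371 with 1 library left out. The 371 came without E16.5 replicate 2, and the other 5 gave 8 to 16. The cause was not tested. The labels do not say if replicate numbers pair the samples. Deviations of same-numbered libraries correlated at 0.068, 0.14 and -0.064, and those of differently numbered libraries at -0.21 to 0.14. Values this weak cannot decide whether the numbers pair the samples. With the replicate block 43 genes were called, and no call among the 10 changed. The exact sign-flip test of the paired ratios cannot go below 0.25.

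The median log2 change of the 10 was -0.0323 and -0.0325 with limma at the larger and smaller pseudocount (medians of all genes 0.0462 and 0.0988; the cause was not tested), and -0.172 to -0.118 with 1 library left out. The smaller pseudocount moved the median of all genes by 0.1007. The log2 difference of Tfb2m over Tfb1m was -0.0173 with 0.5 FPKM added and -0.1457 to 0.1822 with 1 library left out. Leaving out 1 library gave -0.0044 to 0.6082 for Tfam over Polrmt, -0.2042 to 0.115 for Gabpa over Nrf1, -0.8264 to -0.614 for Polg2 over Polg and -0.4914 to -0.3123 for Twnk over Polg. Depth limits Polg2 most, at 157 counts in its lowest library.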
